A study of Mus musculus with 4 samples.

Results

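The start site windows of 10 imprinted genes were followed in an H3K9me3 ChIP-seq comparison of mouse regulatory T cells (Tregs) with and without KAP1. The genes were H19, Igf2, Peg3, Mest, Peg10, Plagl1, Grb10, Meg3, Impact and Nnat. They were chosen by name, through their Ensembl identifiers, from 51121 windows in the deposited table, and all 10 identifiers were found in it. Tregs are T cells that restrain immune responses. They were sorted from the spleen of C57BL/6 mice. Chromatin was precipitated with an antibody to histone H3 trimethylated at lysine 9 (H3K9me3), and reads were counted around transcription start sites. The KAP1-sufficient library came from cells with Foxp3 cre and the KAP1+/+ genotype, and the KAP1-deficient library from cells with Foxp3 cre and KAP1 f/f. Both genotypes thus carry the recombinase, which is driven by the Foxp3 gene and acts in cells that have turned on Foxp3. With 1 library per genotype there is no spread between replicates, no test between genotypes and no p-value: every interval below covers counting error alone. Headings in the table name genotypes but no antibody; that the columns are H3K9me3 rather than input is taken from the study's description. Input libraries were not analysed here.

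Imprinted genes are expressed from the allele of one parent, according to DNA methylation laid down in the egg or sperm at control regions. After fertilisation this methylation is protected by the zinc finger protein ZFP57, which binds its methylated motif and brings in KAP1 (TRIM28). KAP1 in turn gathers the H3K9 methyltransferase SETDB1 and DNA methyltransferases, so the methylated allele of a control region is also known to carry H3K9me3. Most evidence for this comes from embryos and embryonic stem cells. In an inbred strain read counts do not separate the parental alleles, so the values below are the sum of both.

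The 10 genes lie on 7 chromosomes (GRCm38.p6, the assembly that mm10 is based on), with 3 on chromosome 7 and 2 on chromosome 6. Of these genes 8 are protein-coding, and H19 and Meg3 are long noncoding RNA genes. H19 (ENSMUSG00000000031, chr7:142575530-142578146) and Igf2 (ENSMUSG00000048583, chr7:142650768-142666816) are neighbours in 1 imprinted domain, with 72621 bases between them. By textbook knowledge H19, Meg3 and, in most tissues, Grb10 are expressed from the maternal allele, and the other 7 from the paternal allele. For Peg3, Mest, Peg10, Plagl1, Impact and Nnat a control region methylated in the egg lies at or beside the main start site. The control regions of H19, Igf2 and Meg3 are methylated in sperm and lie away from the start sites. That of Grb10 lies at a different promoter from its main one.

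Sequences of 4 start sites are shown, which may not be the starts at which reads were counted. Grb10 had the lowest ratio between the libraries, Nnat the highest, and Plagl1 the most reads over both libraries. Mest is the gene whose promoter holds the core of the ZFP57 motif more than once. Each sequence runs 5′ to 3′ on the gene's strand from 250 bases before the start site to 50 bases after it, from RefSeq (GRCm38.p6). Capitals mark the 6-base ZFP57 core TGCCGC, which in all 4 promoters lies on the opposite strand and so reads GCGGCA. The position of Grb10 is chr11:12037371-12037670 on the minus strand. The other 3, on the plus strand, are Nnat at chr2:157559828-157560127, Plagl1 at chr10:13090582-13090881 and Mest at chr6:30737800-30738099.
Grb10: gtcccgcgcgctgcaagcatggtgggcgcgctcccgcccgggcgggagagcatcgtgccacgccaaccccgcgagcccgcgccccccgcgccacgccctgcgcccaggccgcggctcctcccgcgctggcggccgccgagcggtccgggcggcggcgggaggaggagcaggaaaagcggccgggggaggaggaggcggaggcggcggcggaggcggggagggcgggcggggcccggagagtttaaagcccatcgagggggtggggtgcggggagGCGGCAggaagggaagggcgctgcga
Nnat: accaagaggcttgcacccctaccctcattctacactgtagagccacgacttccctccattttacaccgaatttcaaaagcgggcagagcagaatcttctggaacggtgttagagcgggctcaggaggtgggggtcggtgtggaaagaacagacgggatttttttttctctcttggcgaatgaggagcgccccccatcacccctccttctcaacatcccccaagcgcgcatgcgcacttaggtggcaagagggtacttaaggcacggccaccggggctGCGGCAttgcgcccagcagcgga
Plagl1: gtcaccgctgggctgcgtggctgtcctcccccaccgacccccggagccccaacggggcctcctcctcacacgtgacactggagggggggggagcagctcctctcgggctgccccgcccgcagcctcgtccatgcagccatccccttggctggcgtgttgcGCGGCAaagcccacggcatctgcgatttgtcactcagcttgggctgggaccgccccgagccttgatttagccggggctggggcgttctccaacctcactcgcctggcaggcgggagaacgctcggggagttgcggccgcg
Mest: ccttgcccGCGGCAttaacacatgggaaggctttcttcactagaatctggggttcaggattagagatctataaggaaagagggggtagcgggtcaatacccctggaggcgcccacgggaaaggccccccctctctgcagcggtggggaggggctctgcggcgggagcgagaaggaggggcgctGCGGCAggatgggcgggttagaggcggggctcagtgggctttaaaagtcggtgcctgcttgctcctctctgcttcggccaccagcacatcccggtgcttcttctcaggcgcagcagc

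The imprinted windows as a set were not rich in reads. Window reads totalled 480326 with KAP1 and 228009 without it, a difference in depth of 2.11 times. In the KAP1-sufficient library the 10 windows held 6 to 21 reads with a median of 9, against a median of 10 over the 44974 windows with at least 1 read. In the KAP1-deficient library they held 1 to 14 reads with a median of 4, against 5. Over all 51121 windows, empty ones included, the medians were 10 with KAP1 and 4 without it. In each library 4 of the 10 lay above the respective median. Scaled to 1000000 window reads per library, the median level of the 10 was 18.7 with KAP1 and 17.5 without it, against 20.8 and 21.9 over windows with a read. The name of the group comes from what KAP1 is known to do at these loci. In these counts, start sites of imprinted genes did not stand above start sites in general. A shallow count at the start site does not measure the control region where that region lies elsewhere, and the width of the windows is not given in the sources used here.

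**Figure D1:**
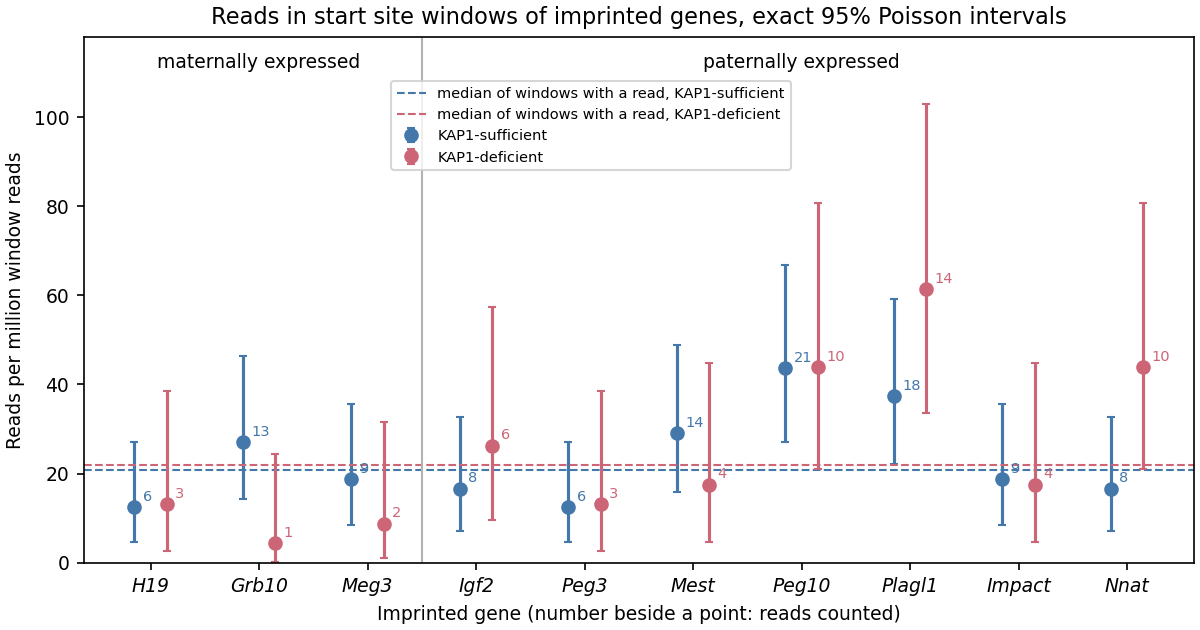
Reads scaled to 1000000 window reads per library (y axis) in the start site window of each imprinted gene (x axis), with exact 95% Poisson intervals as bars, the number of reads beside each point, and dashed lines at the median of windows with a read in each library. Plagl1, Peg10 and Nnat stand highest in the KAP1-deficient library at 14, 10 and 10 reads, and Grb10 lowest at 1 read.

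Among the paternally expressed genes, Peg10 (ENSMUSG00000092035, chr6:4747306-4760517), a gene derived from a retrotransposon, held 21 reads in the KAP1-sufficient library and 10 in the KAP1-deficient library. These counts lie at the 96.8th and 92.6th percentiles of all 51121 windows in each library. Scaled to total window reads, the ratio of the KAP1-deficient over the KAP1-sufficient level was 1.00 (exact 95% interval 0.42 to 2.23), so Peg10 was among the fuller start sites, and its interval spans more than a 2-fold change in either direction.

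Plagl1 (ENSMUSG00000019817, chr10:13090832-13131694), also called Zac1, encodes a zinc finger transcription factor. It held 18 and 14 reads, at the 91.9th and 98.0th percentiles of the respective libraries. The ratio was 1.64 (0.75 to 3.49). With each count scaled to the mean library size and 2 reads then added, the log2 ratio was 0.64. This lay at the 85.8th percentile of windows past the filter of a mean of at least 5 reads. The KAP1-deficient share of its reads was 43.8%, against 35.6% in the top decile of windows by reads, to which Plagl1 belongs, and 32.2% over all windows. Windows with many reads thus had a higher KAP1-deficient share in general. Set against the share of its decile, the Plagl1 ratio was 1.40 (0.65 to 2.99).

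Nnat (ENSMUSG00000067786, chr2:157560078-157562525) encodes neuronatin, a small membrane protein. It held 8 KAP1-sufficient and 10 KAP1-deficient reads, the only one of the 10 windows with more reads in the shallower library. Its ratio of 2.63 was the highest of the 10, with an interval of 0.94 to 7.68 that includes 1. The log2 ratio of 1.15 lay at the 96.9th percentile of windows past the filter. Of the 2197 windows that also held 18 reads over both libraries, 3.55% had at least 10 KAP1-deficient reads.

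Igf2, the gene of insulin-like growth factor II, held 8 and 6 reads. Its ratio was 1.58 (0.45 to 5.19), at the 81.3rd percentile. Its neighbour H19, which is expressed from the other allele, held 6 and 3 reads and a ratio of 1.05 (0.17 to 4.93). The values of the 2 neighbours cannot be told apart at this depth.

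Peg3 (ENSMUSG00000002265, chr7:6703892-6730462), a large zinc finger gene, held the same counts as H19, 6 and 3 reads, and the same ratio. Impact (ENSMUSG00000024423), which encodes a regulator of the kinase GCN2, held 9 and 4 reads, a ratio of 0.94 (0.21 to 3.35) at the 48.5th percentile. By log2 ratio both lay near the middle of windows with at least 1 read, Peg3 at the 55.2nd percentile and Impact at the 49.4th. Peg3 did not pass the filter. Mest (ENSMUSG00000051855, chr6:30733506-30748466), an alpha/beta-hydrolase family member also called Peg1, held 14 and 4 reads. Its ratio was 0.60 (0.14 to 1.92), at the 22.5th percentile, so it was the only paternally expressed gene of the 7 besides Impact with a ratio under 1.

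Among the maternally expressed genes, Grb10 (ENSMUSG00000020176, chr11:11930499-12037428), an adaptor protein that dampens insulin and growth factor receptor signalling, held 13 reads in the KAP1-sufficient library and 1 in the KAP1-deficient library. The ratio was 0.16 with an interval of 0.0038 to 1.08. Its log2 ratio of -1.71 lay at the 1.57th percentile of windows past the filter. Of the 2491 windows with the same 14 reads over both libraries, 4.78% had at most 1 KAP1-deficient read, so counts like these were found at many other start sites. Igf2 was among the windows with 14 reads and had 6 KAP1-deficient reads.

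Meg3 (ENSMUSG00000021268, chr12:109540996-109571729), the noncoding RNA gene of the Dlk1 domain, held 9 and 2 reads, a ratio of 0.47 (0.05 to 2.26) at the 15.3rd percentile. Grb10 and Meg3 were the lowest of the 10 by ratio, and H19, the other maternally expressed gene, was close to 1.

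**Figure D2:**
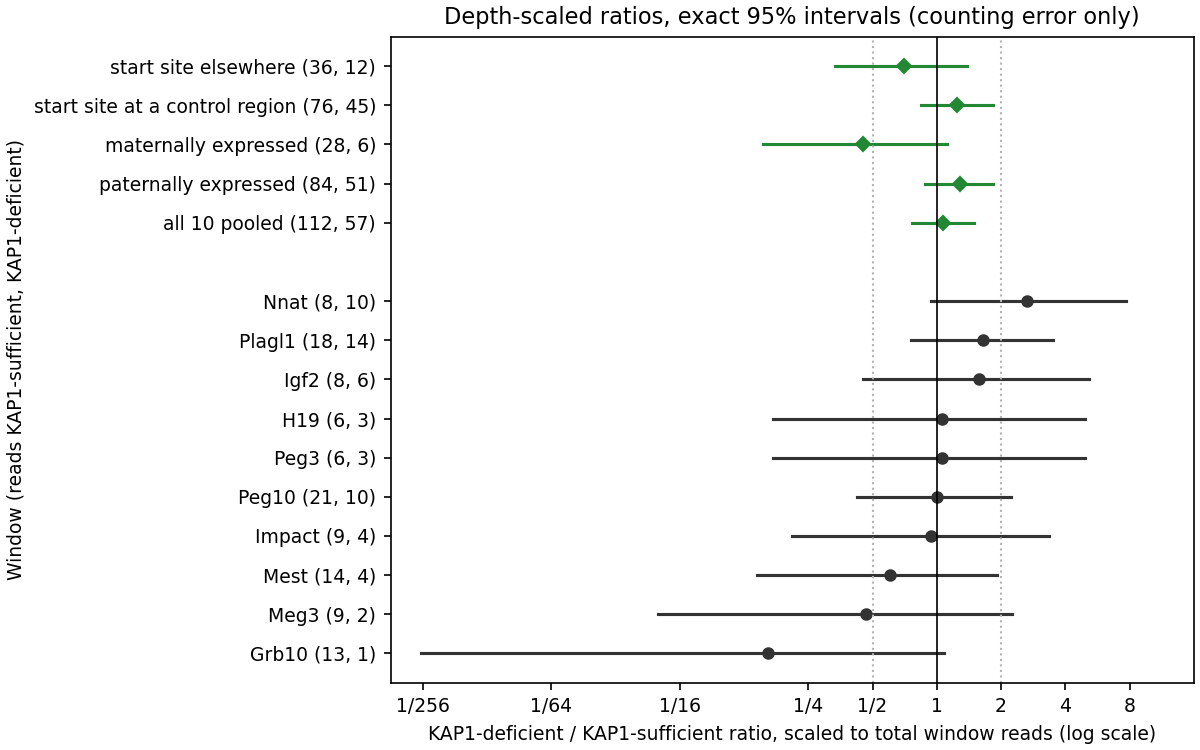
KAP1-deficient to KAP1-sufficient ratios scaled to total window reads (x axis, log scale) with exact 95% intervals for each imprinted gene (circles, reads in parentheses) and for pooled groups (diamonds). The values run from 0.16 for Grb10 to 2.63 for Nnat, and all 10 single-gene intervals and all 5 pooled intervals include 1.

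No imprinted window passed the rule for a call. For a call, the ratio with 2 reads added had to reach 2-fold, up or down, and the exact 95% interval of its KAP1-deficient share had to leave out the 32.2% of all windows. Of the 10 windows 8 passed the filter, and 0 of these 8 were called. H19 and Peg3, with a mean of 4.5 reads, did not pass it. Over the 35540 windows past the filter, 1.81% were called lower, 2.49% higher and 4.30% in either direction, so a count of 0 among 8 windows lies near the background and is no result about these genes. The rule left little room at these depths. At 9 reads over both libraries no count would have been called lower, and 10 reads is the fewest at which a window with 0 KAP1-deficient reads is. A window with the 14 reads of Grb10 needed 0 KAP1-deficient reads for a lower call and had 1. A window with the 18 reads of Nnat needed 11 for a higher call and had 10. These windows therefore lay next to the limits, and 1 read decided each. Plagl1 had the most reads at 32, of which 14 were KAP1-deficient. It needed at least 17 for a higher call or at most 4 for a lower one. In none of the 10 windows was a scaled ratio of exactly 2-fold enough for a call.

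**Figure D3:**
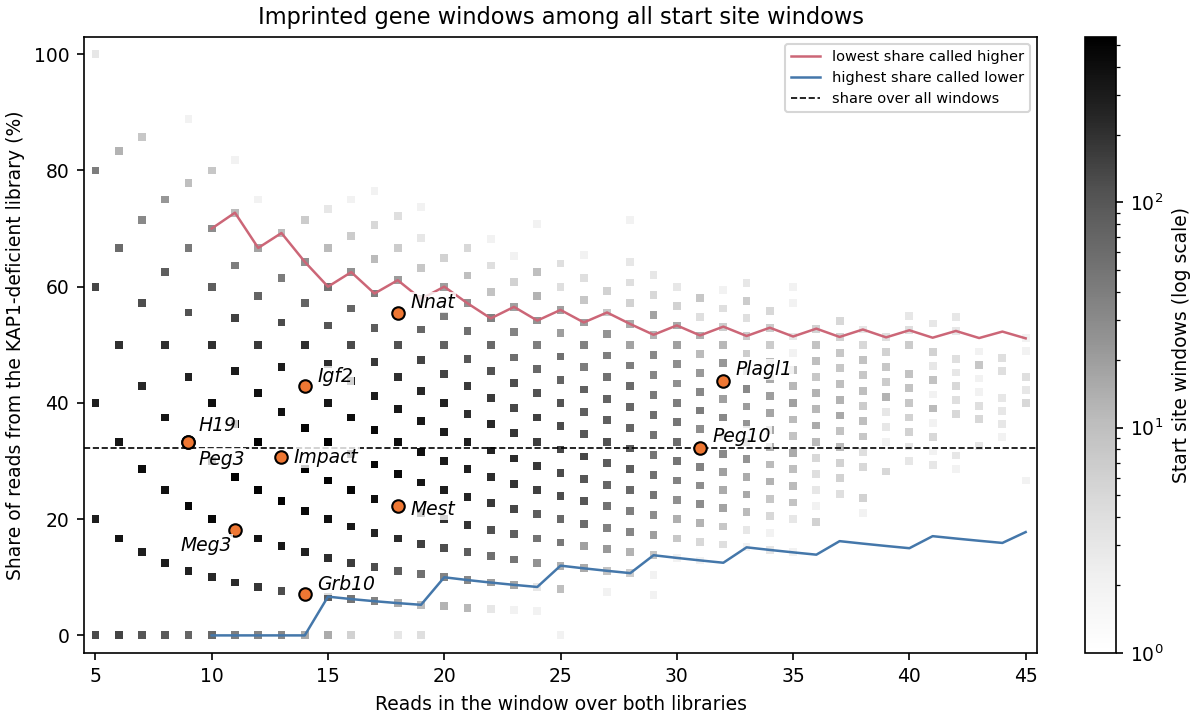
Share of a window's reads that came from the KAP1-deficient library (y axis, percent) against its reads over both libraries (x axis), with all windows of 5 to 45 reads in grey (darker for more windows), the imprinted genes as orange points, and lines at the shares that would be called. All 10 genes lie between the lines or left of them. Grb10 is 1 read above the lower line and Nnat 1 read under the upper line.

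Pooled over the 10 windows, the libraries did not differ by more than counting error. The windows held 112 KAP1-sufficient and 57 KAP1-deficient reads, a KAP1-deficient share of 33.7% (exact 95% interval 26.6 to 41.4) against 32.2% over all windows. The pooled ratio was 1.07 (0.77 to 1.49). Ratios under 0.77 or over 1.49 for the pool therefore lie outside its counting interval, while smaller shifts do not. The members are not replicates of each other, and Peg10 and Plagl1 supplied 24 of the 57 KAP1-deficient reads. The ratio was above 1 in 6 genes and under 1 in 4. Set against the share of each window's decile of reads, Peg10 turned to 0.86 and Impact to 1.02, and the tally was again 6 and 4. The median log2 ratio of the 10, with 2 reads added, was 0.03, against -0.05 over windows past the filter, whose quartiles were -0.50 and 0.39. The median of the 8 genes past the filter was -0.03 and the geometric mean of the 10 ratios, with 2 reads added, 0.95, so the sign of the set's centre depends on how it is summed.

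Grouped by expressed allele, the values fell on opposite sides of 1. The 7 paternally expressed genes held 84 and 51 reads, a pooled ratio of 1.28 (0.88 to 1.83). A ratio above 1 was found in 5 of the 7, with Peg10 at 1.003. The 3 maternally expressed genes held 28 and 6 reads, a pooled ratio of 0.45 (0.15 to 1.11), and 1 of the 3 had a ratio above 1. Both intervals include 1 and they overlap. Grb10 supplied 13 of the 28 KAP1-sufficient reads of the maternal group, and without it the pooled ratio was 0.70 (0.20 to 2.03). The pooled ratio of the paternal group without Nnat was 1.14 (0.76 to 1.68). The difference between the groups was not tested.

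Grouping by where the control region lies differs from grouping by expressed allele only in the place of Igf2. It is therefore nearly the same split, not a separate pattern. The 6 genes with a control region at or beside the start site held 76 and 45 reads, a pooled ratio of 1.25 (0.84 to 1.83). The other 4 held 36 and 12 reads, a ratio of 0.70 (0.33 to 1.38). Without Grb10, the lowest of the 10 by ratio, the latter was 1.01 (0.44 to 2.15). That value pools Igf2 at 1.58, H19 at 1.05 and Meg3 at 0.47. The 6 genes were not pooled without Nnat. Relative to all windows, fewer KAP1-deficient reads at the start sites of these 6 genes were not seen. The pooled value was above 1, with an interval reaching down to 0.84. Which start of a gene was counted is not given. Mest has listed starts at chr6:30733506 and chr6:30738050, so its counted window may lie away from the control region. Scaling to total window reads would hide a change in the overall amount of H3K9me3, and reads were not set against input.

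Promoter sequences were at hand for 7 of the 10 genes, in 14 windows, because Igf2, Mest, Grb10 and Meg3 have more than 1 listed start. H19, Peg10 and Impact had no entry. The deposited table has 1 row per gene and does not say which start it used. The ZFP57 core TGCCGC, searched on both strands, was present in at least 1 window of 6 of the 7 genes, against 13.1% of 27025 genes in the table. By window it was present in 7 of 14, 2 of them Mest windows that overlap almost wholly, against 11.6% of 32851 windows. Without the first base of the core, the genes with a match were again 6 of 7, against 41.7% of all genes, and the windows 8 of 14, against 39.2% of all windows. The core holds a CpG and is frequent in GC-rich sequence: 26.0% of windows of at least 60% GC held it, as did 4 of the 7 imprinted windows of that kind, the 2 Mest windows included.

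Grb10 and Nnat, the extremes of the ratio, both had the core just inside the transcribed part, with its first base at position 25 after the start site in Grb10 and position 28 in Nnat. Plagl1 had it 90 bases before the start, Meg3 190 bases before, and Mest 242 and 67 bases before. In Igf2 it was found in 1 of 4 windows, at position 31 after the start. Another listed window of Grb10, of Meg3 and of Mest held no match. That of Mest has its start site at chr6:30733506, where the gene as given above begins. In Peg3 these letters are not in the window. A match is only a run of letters. The ratios of the 6 genes with a match ran from 0.16 to 2.63, the full range of the 10.

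Base composition also differed widely among these promoters. The Grb10 window shown above was 80.0% GC with 45 CpG dinucleotides, at the 99.0th percentile of all windows by GC. The Plagl1 window was 70.7% GC with 26 CpG, and the Nnat window 57.3% GC with 17. The median over the 14 windows was 60.3% GC and 13.5 CpG, against 52.7% GC and 7 CpG over all windows. Base composition can alter how well a fragment is amplified and sequenced; its part in the ratios was not tested.

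**Figure D4:**
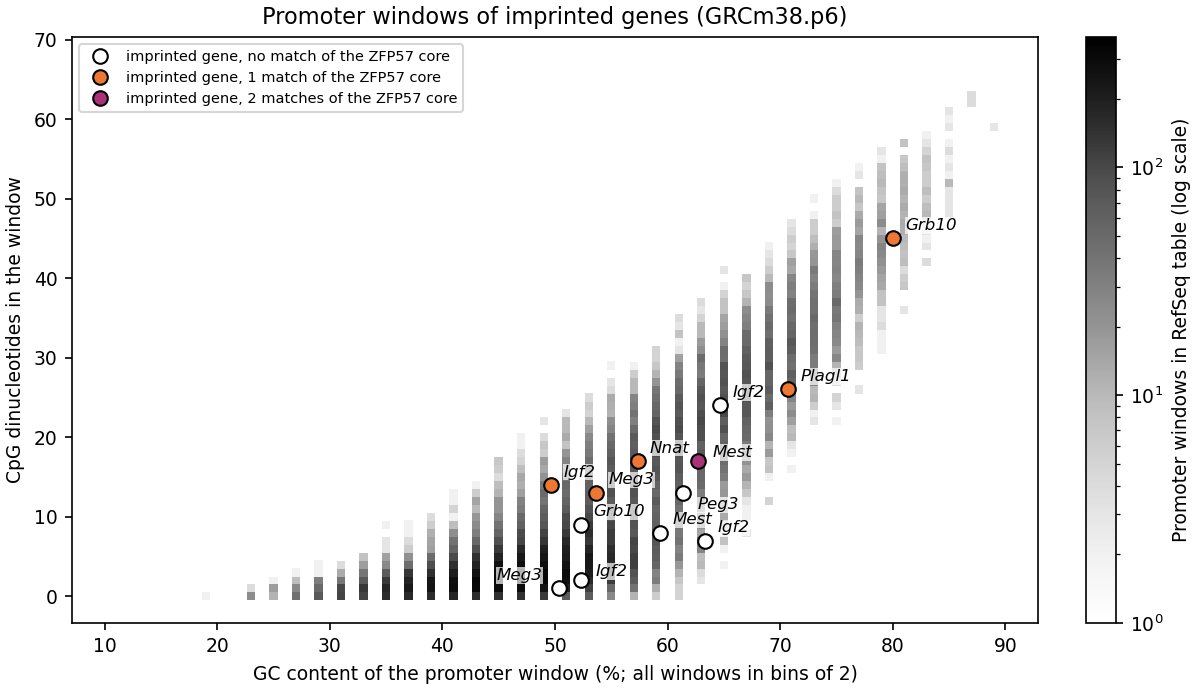
CpG dinucleotides (y axis) against GC content (x axis, percent) of the 300-base promoter windows of 7 imprinted genes, coloured by matches of the ZFP57 core, with all windows of the RefSeq table in grey; 1 of the 2 overlapping Mest windows is left out. Grb10, at 80.0% GC and 45 CpG, and Plagl1, at 70.7% and 26, lie toward the GC-rich end.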

How the data were processed

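The authors deposited 1 table of raw read counts per start site window, as whole numbers, in 2 columns named by genotype per the file headers. The submitters' processing notes name Bowtie2 2.2.9, Picard 2.1.1, bedtools 2.26.0 and mm10; the sources used here do not give the window width, the annotation or any filter on reads, and strict filters would lower counts in repeated or heavily duplicated sequence. Reads amplified by PCR are not independent molecules, so Poisson and Clopper-Pearson intervals (95%) cover counting error only.

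The columns were read as the 2 H3K9me3 libraries, from the series' design text; 0 columns were left unused. Of the 4 samples in the series, the 2 input samples were not analysed here. Scaling used the sum of reads in all windows of a library, so a change in the overall amount of H3K9me3 would not show. For log2 ratios and calls, counts were first scaled to the mean library size, and 2 reads were then added to each scaled value. The filter was a mean of at least 5 reads, and percentiles are mid-ranks. All 10 genes are named whatever their values. The genes, their grouping and the rules were chosen with earlier results of these data known. Fixed lists of other imprinted genes and of KAP1 partners are not reported, since 0 identifiers were paired with symbols in the gene table; the names of the 10 were supplied with their identifiers. The call rule was tested on simulated data. Python 3.11.15, numpy 2.4.6, scipy 1.17.1, pandas 2.3.3 and matplotlib 3.10.9 were used.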

Additional observations from a re-analysis of the deposited data

How the results depend on the processing

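Depth limits every value here: the 10 windows held 9 to 32 reads over both libraries. The count of called windows was 0 under each of the 8 alternatives: scaling by the median of ratios, totals without the 2 most-read windows, an expected ratio per decile of reads, 0.5 or 10 reads added, no filter, a mean of at least 10 reads (2 windows left) and an interval with the 0.05 error divided over the 10 windows. Over all windows 4.30% were called as reported, 0.633% with 10 reads added, 0.459% with that wider interval and 3.56% to 5.92% under the other alternatives. The pooled ratio of 1.07 was 1.12 with the median of ratios and 1.05 per decile of reads. It was 0.95 as a geometric mean of the 10 ratios with 2 reads added after scaling. Leaving out each gene in turn gave 0.95 (without Nnat) to 1.19 (without Grb10), and every one of these intervals included 1. The values without Grb10 or Nnat for the gene groups, and the comparison with windows of the same number of reads, were chosen after seeing the data. No paired analysis was possible because no genotype has more than 1 library.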
